A study of Mus musculus with 18 samples.

Results

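The genes described here are 10 genes of the NF-kB pathway, 4 that encode subunits of the transcription factor (Nfkb1, Nfkb2, Rela and Relb) and 6 that are known as its targets (Nfkbia, Tnfaip3, Tnfaip2, Birc3, Icam1 and Tnf). They were chosen by name, by matching each gene identifier of the count files to its mouse symbol, and make up 10 of the 55401 genes counted. RNA was measured in 18 libraries of primary mouse cholangiocytes, the epithelial cells of the bile ducts, which form 6 groups of 3. The untreated groups are wild-type (WT) and polycystic liver disease (PLD) mice, sampled 1 month or 2 months after tamoxifen was given, and in PLD the ducts widen into cysts. The other groups are PLD mice given CPTH6, a compound that blocks the acetyltransferases Kat2a and Kat2b, or ML324, which blocks demethylases of the KDM4 family, and their titles give 3 months. The labels name no inactivated gene, no promoter that drives the tamoxifen-dependent step and no dose of either compound, and they describe tamoxifen for WT and PLD mice alike. Cells were taken from minced bile ducts with beads that carry an antibody to EpCAM, and their purity was judged by staining for cytokeratin-19. The labels do not say whether replicates are separate animals, so the p-values reflect no more than the spread among these libraries, part of which may be technical.

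NF-kB proteins act as pairs of subunits that IkB proteins hold in the cytoplasm until a signal, such as TNF or interleukin-1 reaching its receptor, leads to their release. In the canonical branch the IKK kinases mark IkB-alpha, the product of Nfkbia, for destruction, and pairs of RelA and p50 (from Nfkb1) enter the nucleus. In the other branch the kinase NIK (Map3k14) drives the processing of the Nfkb2 product to p52, which pairs with RelB. Many of the genes switched on encode inhibitors of the pathway itself, among them Nfkbia, Tnfaip3 and Nfkb2, and in bile duct cells the pathway is known for the response to bacterial products and cytokines.

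NF-kB subunits bind a 10-base DNA element, the kappaB consensus, so the promoters were searched for it on both strands. RefSeq promoter windows on GRCm38.p6, the build also called mm10, run from 250 bases before to 50 bases after a start site, 300 in length. They were matched by symbol for 8 of the 10 genes, not for Nfkb1 and Relb. A match was found in 4 of the 8 genes and in 6 of their 11 windows (54.5%), against 8.46% of 32851 windows of all genes and 32.9% of 76 windows of 61 other NF-kB pathway genes. More than 1 match was found in 27.3% of the windows of these genes, 9.21% of those of the other pathway genes and 1.22% of all windows. Counted by gene, 4 of 8 had a match, beside 24 of 61 other pathway genes and 2581 of 27025 among all genes with windows. Nfkb2 alone gave 3 of the 6 windows, of which 2 overlap and share a match. Windows of Rela, Birc3, Icam1 and Tnf held no match, which says only that the consensus searched for is not in them. The matches are shown in capitals with up to 10 bases on either side, 5′ to 3′ on the strand of the gene. They are forms of the element that the promoters with a match share, found on either strand. The blocks of Nfkbia and Tnfaip2, of Tnfaip3 at -12 and of Nfkb2 at -236 fit the consensus only on the opposite strand. Their positions are counted from the start site of the window.
Nfkb2, chr19:46304689-46304717, plus strand, match at -39: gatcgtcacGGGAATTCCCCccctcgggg
Nfkb2, chr19:46304716-46304745, plus strand, match at -11: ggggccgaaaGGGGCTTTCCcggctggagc
Nfkb2, chr19:46305449-46305478, plus strand, match at -236 of a second start site: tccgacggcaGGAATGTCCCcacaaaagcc
Nfkb2, chr19:46305695-46305724, plus strand, match at 10 after that second start site: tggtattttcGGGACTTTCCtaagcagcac
Nfkbia, chr12:55492657-55492686, minus strand, match at -29: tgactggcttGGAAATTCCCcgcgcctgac
Tnfaip3, chr10:19015516-19015545, minus strand, match at -125: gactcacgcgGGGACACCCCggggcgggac
Tnfaip3, chr10:19015403-19015432, minus strand, match at -12: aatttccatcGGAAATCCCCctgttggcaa
Tnfaip2, chr12:111442627-111442656, plus strand, match at -24: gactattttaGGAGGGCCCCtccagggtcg
The first Nfkb2 block is 11 bases long because matches starting at -39 and -38 overlap. The last Nfkb2 block also lies at -225 of another RefSeq start site. The Tnfaip2 block and the Nfkb2 blocks at -39, -11 and 10 lie in exons of the annotation used for counting, and the other 4 blocks do not. The upstream part of the Nfkbia promoter is given whole. Nfkbia is an inhibitor gene and has the highest level of the 10 per kilobase of exon, and its match lies just upstream of the start.
Nfkbia promoter, chr12:55492648-55492897, minus strand: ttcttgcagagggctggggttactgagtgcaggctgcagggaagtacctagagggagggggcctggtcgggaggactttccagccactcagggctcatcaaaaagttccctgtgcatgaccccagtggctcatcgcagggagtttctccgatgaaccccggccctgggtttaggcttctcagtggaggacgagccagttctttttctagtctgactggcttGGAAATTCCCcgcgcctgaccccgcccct

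The libraries held 16345740 to 29277311 counts in all. WT replicate 3 at 1 month stood apart by its cell type markers, with stellate cell and fibroblast markers summing to 3320 CPM (counts scaled to library size) against 19180 and 18594 in the other WT libraries of 1 month. Its cholangiocyte markers summed to 10123 CPM against 3959 and 3815, within the 9234 to 12511 CPM of PLD at 1 month. WT replicate 1 at 2 months had a count in 40039 genes, while the other libraries had one in 22780 to 30332. ML324 replicate 2 had more endothelial (611 against 122 and 143 CPM) and fibroblast markers (1111 against 317 and 438 CPM) than the rest of its group, and leaving it out changed no call of the 10 genes after ML324.

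Counts of read pairs per gene were scaled to CPM, counts relative to the size of each library, with TMM factors, and a gene was called higher or lower where edgeR's quasi-likelihood test gave a Benjamini-Hochberg adjusted p under 0.05 over all genes tested. Rela and Relb were higher in PLD than in WT at 2 months, and 0 of the 10 genes were called at 1 month. Nfkb1 and Nfkb2 were higher, and Tnf lower, in both groups of treated PLD mice than in untreated PLD mice at 2 months. Icam1 was higher after CPTH6. Nfkbia, Tnfaip3, Tnfaip2 and Birc3 were called in none of the 8 comparisons. All 10 genes passed the filter on low counts in every comparison, with 439 counts (Tnf) to 35390 counts (Nfkbia) per library.

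The counts of calls read as follows against all genes. In PLD against WT at 2 months 2 of the 10 genes were higher and 0 lower, where 40.0% of 17749 genes were called, 19.7% higher and 20.3% lower, so the share of higher genes lies near that of all genes. At 1 month, where 5.03% of genes were called, 0 of the 10 passed and 2 had an unadjusted p under 0.05. For 2 months against 1 month, 0 of the 10 passed in PLD (9.61% of all genes called) and 0 in WT (0.0507% called), with an unadjusted p under 0.05 for 2 and 3 of them. The interaction of genotype and time, which asks whether the PLD difference changed between the months, called 5.68% of genes and 0 of the 10, with 0 at an unadjusted p under 0.05. The shares of all genes given here are at the adjusted threshold. For the untreated groups the share at an unadjusted p under 0.05 was not counted, so nothing is read from those counts. For CPTH6 against untreated PLD, 3 of the 10 were higher (9.39% of 16502 genes) and 1 lower (13.7%), with 23.1% of genes called either way. For ML324 the counts were 2 higher (7.96%) and 1 lower (11.4%), with 19.4% called either way. The treated groups share their untreated control libraries, and treatment, month (3 against 2) and library preparation cannot be told apart in either comparison. The median change of the 10 genes in PLD against WT was -0.01 at 1 month and 0.20 at 2 months on the log2 scale, beside -0.05 and -0.03 over all genes tested. It was 0.28 after CPTH6 and -0.07 after ML324, beside -0.04 and -0.01 over all genes.

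**Figure D1:**
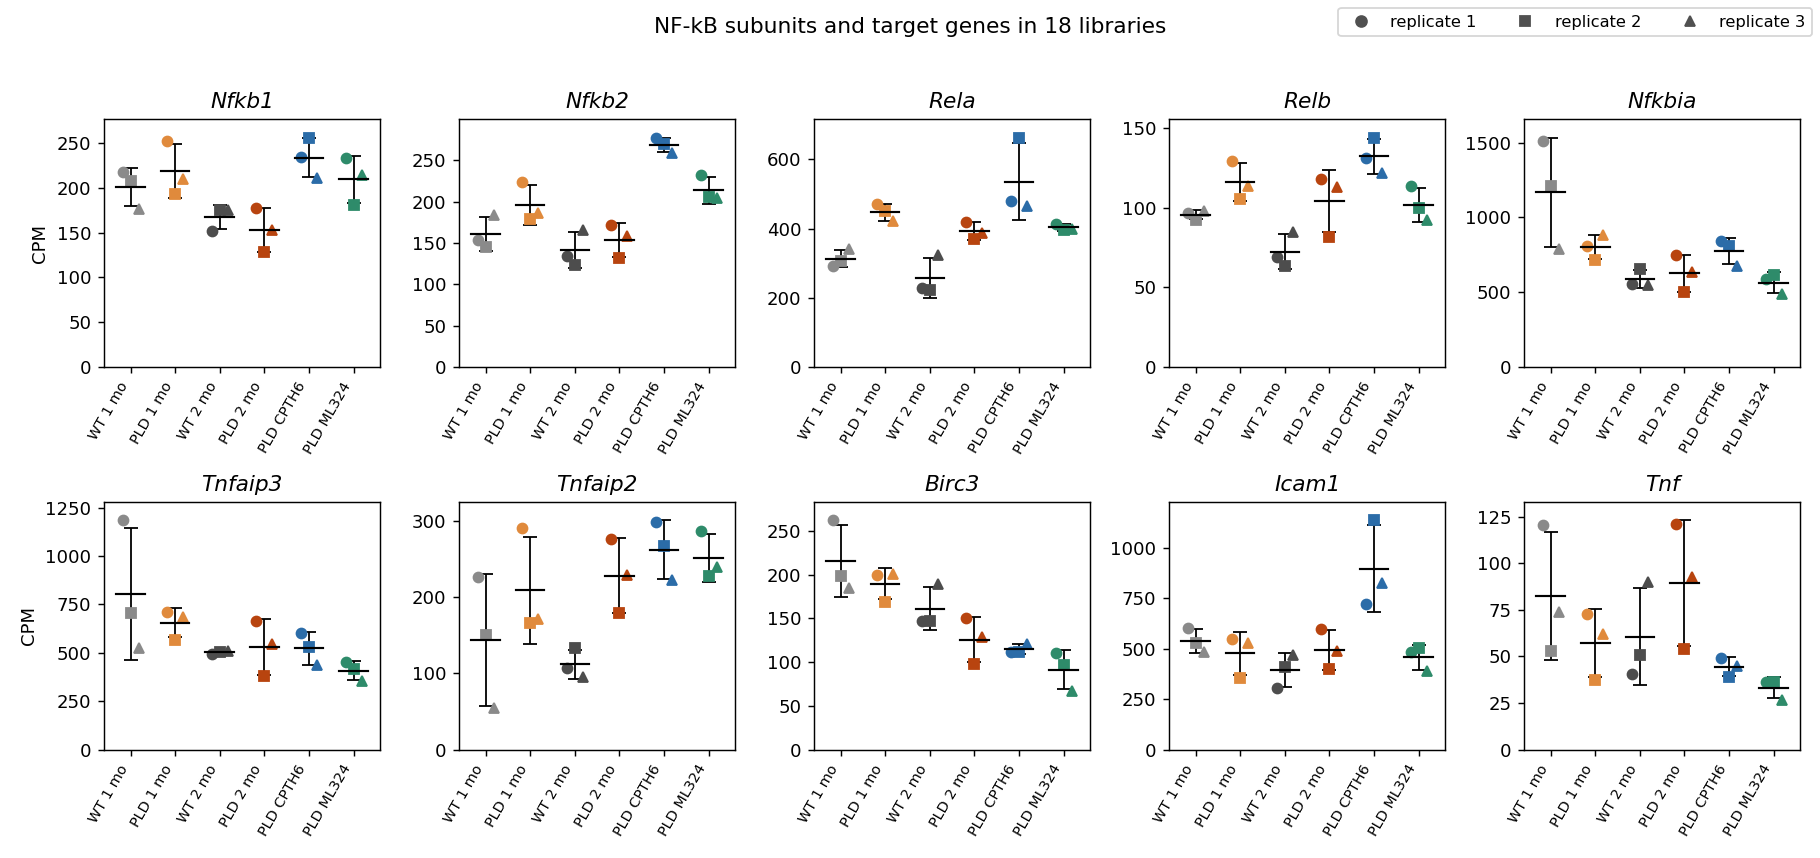
CPM of each gene (y axis, from 0) in the 3 libraries of each group (x axis), with a symbol per replicate, a line at the mean and bars of 1 SD. The CPTH6 libraries are the highest group for Nfkb2 and Icam1, the treated groups have the lowest means for Tnf, and WT at 1 month has the widest spread for Nfkbia, Tnfaip3 and Tnfaip2.

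Compared per kilobase of exon, the inhibitor gene Nfkbia was the most abundant of the 10 in every group, with group means of 350.0 (ML324) to 726 (WT at 1 month) CPM per kilobase. Nfkb1 was the least abundant in every group on this scale, at 12.7 (untreated PLD at 2 months) to 19.4 (CPTH6) CPM per kilobase. This scale divides by all annotated exon bases of a gene, 12061 for Nfkb1, the longest of the 10, and 1610 for Nfkbia. Undivided, group means of Nfkb1 were 153 to 234 CPM, above Relb (72.6 to 132) and Tnf (33.2 to 89.4) in every group. With CPTH6, Icam1 had a mean of 897 CPM and Nfkbia of 774. Rela ran from 83.9 to 174, Icam1 from 90.7 to 206 and Tnfaip3 from 56.3 to 112 CPM per kilobase. The means of Nfkb2 lay between 30.8 and 58.6, of Relb between 18.7 and 34.1, of Tnfaip2 between 22.4 and 52.6, of Birc3 between 18.3 and 43.0 and of Tnf between 20.3 and 54.5 CPM per kilobase. The ratio of the highest to the lowest group mean of a gene was smallest for Nfkb1, at 1.53, and largest for Tnf, at 2.69.

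Among the subunit genes, Rela (ENSMUSG00000024927.8, chr19:5637483-5648130, plus strand, mm10), which encodes the activating subunit p65, was the one whose PLD difference was largest at both months. At 2 months the WT libraries had 227, 222 and 324 CPM and the PLD libraries 419, 370.1 and 388 CPM. Every PLD library lay above every WT library, with WT replicate 3 as the highest of the WT libraries. The change was 0.58 ± 0.15 on the log2 scale (standard error, n = 3 libraries per group), from 258 ± 57.5 to 393 ± 25.0 CPM (SD; edgeR adjusted p = 0.0109). The call was kept when each library was left out in turn, with adjusted p from 0.00255 to 0.0441. At 1 month the WT libraries had 292, 306 and 340.1 CPM and the PLD libraries 469.9, 449.6 and 421 CPM. The groups again did not overlap, but the change of 0.52 ± 0.15 did not pass over all genes (edgeR adjusted p = 0.0673). Without WT replicate 3, the WT library of 1 month whose cholangiocyte markers lie in the range of PLD, Rela was called at 1 month, at 0.60 (edgeR adjusted p = 0.0258, the lowest of a range up to 0.241 over single libraries left out). That library had the most Rela of the WT libraries at 1 month. Without it 3485 genes were called at 1 month, beside 892 with all libraries. CPTH6 libraries had 478, 663 and 466 CPM of Rela and ML324 libraries 414, 397 and 399 CPM. Replicate 2 of CPTH6 stood above its group, and the ML324 libraries lay within the range of untreated PLD at 2 months. Against untreated PLD the changes were 0.40 ± 0.13 for CPTH6 (edgeR adjusted p = 0.0547) and 0.04 ± 0.13 for ML324 (edgeR adjusted p = 0.856). Rela was called after CPTH6 by DESeq2, with median-ratio scaling and with no filter on low counts.

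Relb (ENSMUSG00000002983.17, chr7:19606217-19629438, minus strand) encodes the partner of p52 in the second branch. At 2 months WT libraries had 69.2, 63.5 and 85.0 CPM and PLD libraries 118, 81.8 and 113 CPM. PLD replicate 2 fell below the highest WT library, so the groups overlapped. Relb was higher in PLD by 0.49 ± 0.15 on the log2 scale (edgeR adjusted p = 0.025), a 1.41-fold difference. The call ended without PLD replicate 1 or 3 or without WT replicate 1 or 2, with adjusted p up to 0.0828. It also ended with no filter on low counts, with only the 2 groups fitted and without both WT libraries that stand apart (edgeR adjusted p = 0.0609). At 1 month the WT libraries had 97.1, 92.3 and 98.0 CPM and the PLD libraries 129.5, 106 and 114 CPM. These groups did not overlap, and the change of 0.29 ± 0.15 was not called (edgeR adjusted p = 0.269). Treated libraries had 131, 144 and 122 CPM with CPTH6 and 113, 99.9 and 92.3 CPM with ML324. All CPTH6 libraries lay above the untreated PLD libraries of 2 months, at a change of 0.29 ± 0.14 that was not called (edgeR adjusted p = 0.161), and ML324 overlapped them (-0.03 ± 0.14).

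Nfkb1 (ENSMUSG00000028163.17, chr3:135584655-135691547, minus strand) encodes p105, the precursor of p50. WT libraries had 218, 208 and 177 CPM at 1 month and 152, 175 and 175 at 2 months. PLD libraries had 252, 193 and 210.1 CPM at 1 month and 178, 128 and 153 at 2 months. The genotypes overlapped at both months, while within each genotype every library at 2 months lay below every library at 1 month. The change with time was -0.51 ± 0.15 in PLD (edgeR adjusted p = 0.0531) and -0.22 ± 0.15 in WT (edgeR adjusted p = 0.501), so neither was called. CPTH6 libraries had 234, 256 and 211 CPM and ML324 libraries 233, 181 and 214 CPM. Every treated library was above the untreated PLD libraries at 2 months and within or close to the levels of 1 month. Nfkb1 was higher by 0.56 ± 0.14 after CPTH6 (edgeR adjusted p = 0.0186) and by 0.46 ± 0.14 after ML324 (edgeR adjusted p = 0.0476). Both calls ended without untreated PLD replicate 2 or 3. The CPTH6 call also ended without CPTH6 replicate 1 or 2, and the ML324 call without ML324 replicate 1 or 3, with adjusted p up to 0.0588 and 0.128. The ML324 call ended as well when only the 2 groups were fitted.

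Nfkb2 (ENSMUSG00000025225.15, chr19:46304320-46312385, plus strand) encodes p100, which acts as an inhibitor until it is processed to p52. WT libraries had 154, 145 and 184 CPM at 1 month and 135, 123 and 166 at 2 months, and PLD libraries had 223, 179 and 186 and then 172, 132 and 158 CPM. The genotypes overlapped at both months (0.29 ± 0.16 and 0.09 ± 0.16, not called). CPTH6 libraries had 277, 269.7 and 259 CPM and ML324 libraries 233, 205 and 204 CPM, all above the untreated PLD libraries at 2 months. The 3 CPTH6 libraries were the highest of all 18. Nfkb2 was higher by 0.75 ± 0.11 after CPTH6, a 1.69-fold difference (edgeR adjusted p = 0.00189), and by 0.48 ± 0.11 after ML324, a 1.39-fold difference (edgeR adjusted p = 0.0167). Both calls were kept when each library was left out in turn, with adjusted p up to 0.0102 and 0.0482. Of the exon bases of Nfkb2, 18.1% are shared with the genes AC114539.1 and Psd on the other strand, and counting used no strand, so read pairs that could not be given to a single gene there were left out.

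**Figure D2:**
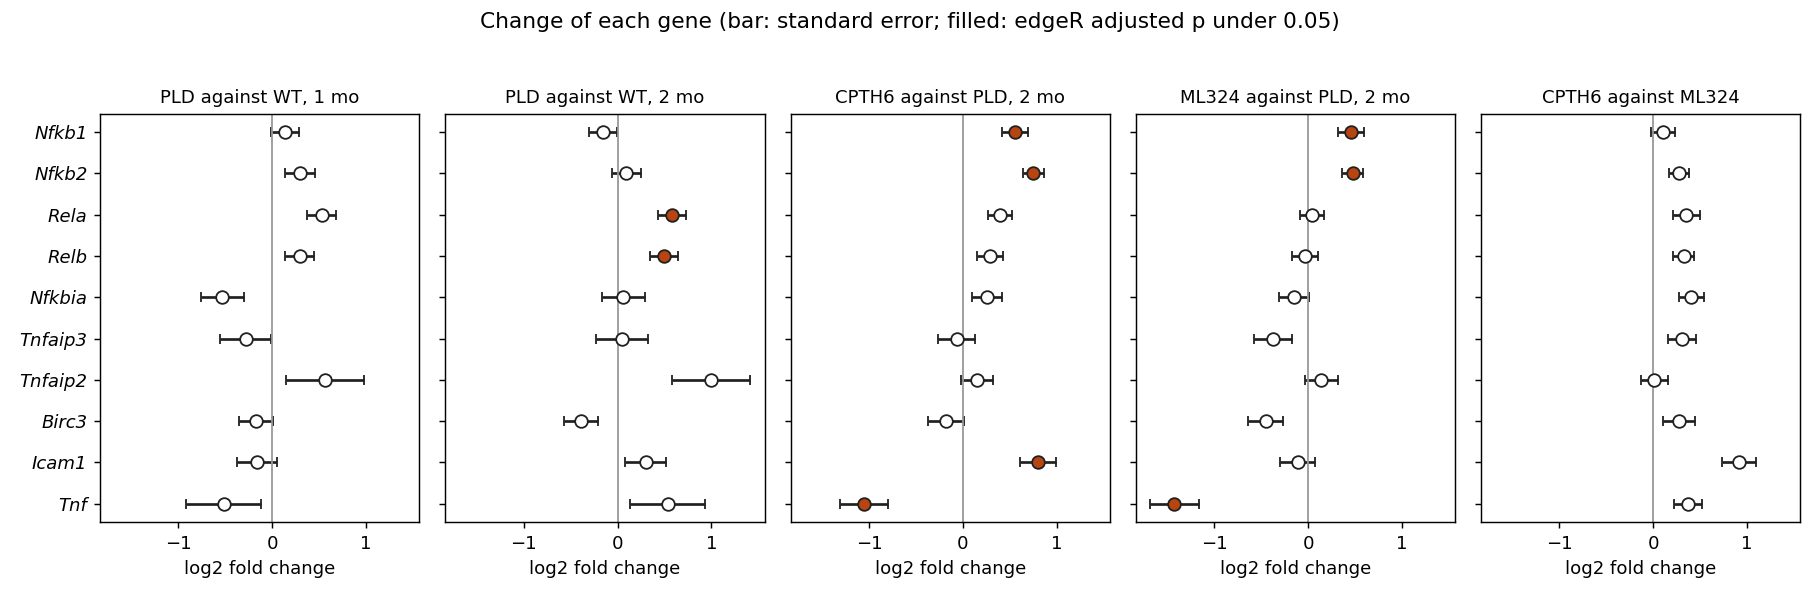
Log2 fold change (x axis) of each gene (y axis) in 5 comparisons, with bars of 1 standard error and filled points where edgeR's adjusted p was under 0.05. Filled points are Rela and Relb in PLD against WT at 2 months, Nfkb1, Nfkb2, Icam1 and Tnf for CPTH6, and Nfkb1, Nfkb2 and Tnf for ML324, and there are none at 1 month or between the compounds.

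The inhibitor genes Nfkbia and Tnfaip3 were not called in any comparison, and their largest differences came with time in WT. Nfkbia (ENSMUSG00000021025.8, chr12:55489410-55492647, minus strand) encodes IkB-alpha, which returns NF-kB to the cytoplasm and is itself induced by it. WT libraries had 1511, 1209 and 787 CPM at 1 month and 554, 657 and 547 at 2 months. Every library at 1 month lay above those at 2 months, with replicate 3 as the lowest at 1 month, and the change of -0.95 ± 0.23 did not pass (edgeR adjusted p = 0.121). Without WT replicate 3 of 1 month it was called (edgeR adjusted p = 0.0139), and the value over single libraries left out reached 0.336. The fit without that library called 389 genes, beside 9 with all libraries. DESeq2 and the fit with no filter on low counts called it too. PLD libraries had 810.4, 715 and 879 CPM at 1 month and 745, 500.0 and 632 at 2 months. They lay below the first 2 WT libraries at 1 month, at a change of -0.53 ± 0.23 against WT (edgeR adjusted p = 0.182), which was called without WT replicate 3 (-0.74, edgeR adjusted p = 0.0195, the lowest of a range up to 0.459). Without that library 3485 genes were called at 1 month, beside 892 with all libraries. At 2 months the genotypes overlapped, with a change of 0.06 ± 0.23. After CPTH6 the libraries had 842, 808 and 674 CPM and after ML324 591, 615 and 485 CPM, both overlapping untreated PLD at 2 months (0.26 ± 0.16 and -0.15 ± 0.16, not called).

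Tnfaip3 (ENSMUSG00000019850.11, chr10:19000910-19015657, minus strand) encodes A20, an enzyme that edits ubiquitin chains and shuts the pathway off. WT libraries had 1186, 708 and 524 CPM at 1 month and 493, 503 and 511 at 2 months. The 3 WT libraries at 2 months were close to each other, whereas replicate 1 at 1 month stood above its group. PLD libraries had 709.7, 569 and 686 CPM at 1 month and 665, 378 and 546 at 2 months, overlapping WT at both months. The changes against WT were -0.28 ± 0.28 at 1 month and 0.04 ± 0.28 at 2 months, and the sign turned without WT replicate 1 at 1 month and without PLD replicate 1 at 2 months. Treated libraries had 604, 529 and 435 CPM with CPTH6 and 450.3, 418 and 353 CPM with ML324. Both groups overlapped untreated PLD, at changes of -0.07 ± 0.20 and -0.37 ± 0.20 that were not called.

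Of the other target genes, Icam1 (ENSMUSG00000037405.8, chr9:21015985-21028817, plus strand) encodes an adhesion molecule that leukocytes bind. WT libraries had 601, 531 and 486 CPM at 1 month and 307, 407 and 471 at 2 months, and PLD libraries had 549, 356 and 531 and then 597, 399.7 and 491 CPM. The genotypes overlapped at both months (-0.16 ± 0.21 and 0.30 ± 0.21, not called). CPTH6 libraries had 723, 1139 and 828 CPM, the 3 highest values of the 18, with replicate 2 above its group. ML324 libraries had 485, 502 and 388 CPM and overlapped untreated PLD at 2 months, with replicate 3 just below its lowest library. Icam1 was higher after CPTH6 by 0.80 ± 0.19, a 1.74-fold difference (edgeR adjusted p = 0.0154), and not called after ML324 at -0.11 ± 0.19 (edgeR adjusted p = 0.727). The CPTH6 call ended without untreated PLD replicate 3 (edgeR adjusted p = 0.0522, the highest of a range from 0.0154). Of the exon bases of Icam1, 11.7% are shared with Gm47079 on the other strand.

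Tnfaip2 (ENSMUSG00000021281.15, chr12:111442469-111455018, plus strand) encodes a TNF-induced protein linked to membrane protrusions. At 2 months the WT libraries had 107, 133 and 95.6 CPM and the PLD libraries 276, 178 and 229 CPM. All PLD libraries lay above all WT libraries, yet the change of 1.00 ± 0.42 was not called (edgeR adjusted p = 0.0792). It was called by DESeq2, with no filter on low counts, with only the libraries of the 2 groups, and without WT replicate 3 of 1 month and WT replicate 1 of 2 months together. At 1 month the WT libraries had 227, 149.9 and 54.0 CPM and the PLD libraries 290.1, 166 and 171 CPM, which overlapped. Treated libraries had 298, 267 and 222 CPM with CPTH6 and 286, 227 and 239 CPM with ML324, overlapping untreated PLD with changes of 0.15 ± 0.17 and 0.14 ± 0.17.

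Birc3 (ENSMUSG00000032000.17, chr9:7848699-7873186, minus strand) encodes cIAP2, a ubiquitin ligase that protects cells from TNF-induced death. WT libraries had 262, 199 and 185 CPM at 1 month and 147, 147 and 189.7 at 2 months, and PLD libraries had 199, 169 and 201 and then 149.9, 98.4 and 129 CPM. In PLD every library at 2 months lay below those at 1 month, at a change of -0.59 ± 0.18 (edgeR adjusted p = 0.0621). DESeq2 and the fit of these 2 groups alone called that change, as did the fit with no filter on low counts and the fit without both WT libraries that stand apart. The changes of PLD against WT were -0.17 ± 0.18 at 1 month and -0.39 ± 0.18 at 2 months, and neither was called. CPTH6 libraries had 112, 111 and 121 CPM and ML324 libraries 110.3, 96.7 and 67.4 CPM, at -0.18 ± 0.19 and -0.45 ± 0.19 against untreated PLD. The ML324 libraries were the lowest group, but overlapped untreated PLD at 2 months (edgeR adjusted p = 0.125), and the change was called with no filter on low counts.

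Tnf (ENSMUSG00000024401.14, chr17:35199381-35202007, minus strand) encodes the cytokine TNF, which both activates NF-kB and is induced by it. WT libraries had 120.5, 53.1 and 74.1 CPM at 1 month and 40.7, 51.0 and 90.1 at 2 months. PLD libraries had 72.6, 37.2 and 62.0 CPM at 1 month and 121, 54.0 and 92.8 at 2 months. Libraries of 1 group lay far apart, with PLD replicate 1 at 2 months the highest of its group, and the genotypes overlapped at both months, with changes of -0.51 ± 0.40 and 0.54 ± 0.40. CPTH6 libraries had 49.4, 39.2 and 44.9 CPM and ML324 libraries 36.4, 36.5 and 26.6 CPM. All 6 lay below the lowest untreated PLD library at 2 months, but not all below the lowest PLD library of 1 month. Tnf was lower by 1.05 ± 0.25 on the log2 scale after CPTH6 (edgeR adjusted p = 0.016) and by 1.42 ± 0.26 after ML324 (edgeR adjusted p = 0.00566). The CPTH6 call ended without CPTH6 replicate 2 or 3 (adjusted p up to 0.0712), while the ML324 call was kept without any single library.

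Over time, libraries at 2 months lay wholly below those at 1 month for 4 of the 10 genes in PLD (Nfkb1, Nfkb2, Rela and Birc3), as for 23.0% of all genes. In WT this held for 5 of the 10 (Nfkb1, Relb, Nfkbia, Tnfaip3 and Icam1), as for 9.87% of all genes, and 0 genes of either list were called. The median change with time was -0.24 in PLD and -0.36 in WT, beside -0.01 and -0.04 over all genes tested. The interaction of genotype and time was largest for Tnf, at 1.05 ± 0.56, and for Nfkbia, at 0.59 ± 0.32 (edgeR adjusted p = 0.287 and 0.291).

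Between the compounds edgeR called 0.00% of 15989 genes at the adjusted threshold, with the smallest adjusted p at 0.209, so 0 of the 10 genes were called. At an unadjusted p under 0.05 it gave 2008 genes, and DESeq2 called 268 genes, of which Icam1 was 1. Of the 10 genes, 6 had an unadjusted p under 0.05, each higher with CPTH6, as for 5.99% of all genes. For 7 of the 10 every CPTH6 library lay above every ML324 library, as for 12.9% of all genes. Icam1 differed the most, at 0.91 ± 0.18 on the log2 scale (95% confidence interval 0.50 to 1.33, unadjusted p = 0.000921, edgeR adjusted p = 0.235). For Nfkb2 the difference was 0.27 (0.04 to 0.51), for Nfkbia 0.41 (0.09 to 0.72), for Rela 0.35 (0.03 to 0.68), for Relb 0.32 (0.07 to 0.58) and for Tnf 0.37 (0.02 to 0.72). Nfkb1 at 0.10 (-0.19 to 0.40) and Tnfaip2 at 0.01 (-0.32 to 0.34) had intervals that include 0, as did Tnfaip3 at 0.31 (-0.04 to 0.66) and Birc3 at 0.27 (-0.12 to 0.67). The doses are not given in the sources used here, so these differences belong to the libraries as labelled.

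The order of the 3 libraries within a group was shared by many of the 10 genes. In untreated PLD at 2 months, replicate 1 was the highest of the 3 libraries for 10 of the 10 genes and replicate 2 the lowest for 10 of 10. Among 11830 other genes with at least 100 counts on average, replicate 1 was the highest for 28.6% and replicate 2 the lowest for 41.2%. In PLD at 1 month replicate 1 was the highest for 8 of the 10 and replicate 2 the lowest for 9, against 22.4% and 25.8% of the other genes. In the groups treated with CPTH6 and ML324, replicate 3 was the lowest for 7 of the 10 genes each, against 35.9% and 32.2% of the other genes. In WT replicate 1 at 1 month and replicate 3 at 2 months were the highest for 7 of the 10 each, against 28.7% and 42.3%. The untreated PLD libraries at 2 months are the controls of both compounds, and the source of this order was not tested.

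Markers of the cells that such preparations can hold also differed between these libraries, and in bulk RNA fewer cells of a type and less RNA per cell cannot be told apart. Each of the 12 cholangiocyte markers had counts in every group, and their summed level was 2597 to 25731 CPM per library. In the fits with treated libraries 11 of the 12 passed the filter on low counts. At 2 months 9 of 12 cholangiocyte markers were higher in PLD and 12 of 12 endothelial markers lower, beside the higher Rela and Relb. Endothelial markers summed to 6167 to 11163 CPM in WT and 492 to 1222 in PLD, and 6 of 12 stellate cell and fibroblast markers were lower as well. Of 12 macrophage and Kupffer cell markers 4 were lower and 1 higher, and 2 of 10 dendritic cell and MHC class II markers were lower. At 1 month 4 of 12 cholangiocyte markers were already higher in PLD, and 1 of 12 macrophage and Kupffer cell markers was lower. Stellate cell and fibroblast markers fell further with treatment, 12 of 12 with CPTH6 and 11 of 12 with ML324, from 3506 to 7802 CPM in untreated PLD to 419 to 517 and 317 to 1111 CPM. Macrophage and Kupffer cell markers summed to 861 to 1651 CPM in untreated PLD, 631 to 763 with CPTH6 and 535 to 635 with ML324, with 6 and 7 of the 11 tested called lower, beside the lower Tnf. In untreated PLD at 2 months they had 1651, 861 and 1336 CPM in replicates 1, 2 and 3, the order of Tnf and of the other 9 genes. Cholangiocyte markers (16109, 13553 and 15608 CPM) and hepatocyte markers (5674, 2578 and 5266 CPM) had that order too, so it was not particular to macrophage markers. The remaining marker lists had other orders. Cholangiocyte markers summed to 20985 to 25731 CPM with CPTH6 and 17871 to 21847 with ML324. In untreated PLD at 2 months they summed to 13553 to 16109 CPM. Of the 11 tested, 4 were called higher with CPTH6 and 1 with ML324, beside the higher Nfkb1 and Nfkb2. Endothelial markers were lower for 4 of 12 with CPTH6 and 2 of 12 with ML324. Neutrophil markers rose, 7 of 10 with CPTH6 and 5 of 10 with ML324. Their sums went from 16.5 to 48.7 CPM to 105 to 1025 and 135 to 798 CPM, and Ly6g was at 0 in untreated PLD at 2 months. Within the CPTH6 group neutrophil markers ran from 105 CPM in replicate 1 to 717 and 1025 in replicates 2 and 3. In those libraries Nfkb2 had 277, 269.7 and 259 CPM and Icam1 723, 1139 and 828 CPM, so replicate 1 was the highest for Nfkb2 and the lowest for Icam1. Hepatocyte markers summed to 654 to 959 CPM in WT at 2 months and 2578 to 5674 in PLD, with 5 of 10 higher and 3 lower, again beside the higher Rela and Relb. Lymphocyte markers lay between 3.88 and 46.2 CPM over all libraries. With time in PLD 11 of 12 endothelial and 2 of 12 stellate cell and fibroblast markers were lower. The part of these cells in the changes of the 10 genes was not tested.

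**Figure D3:**
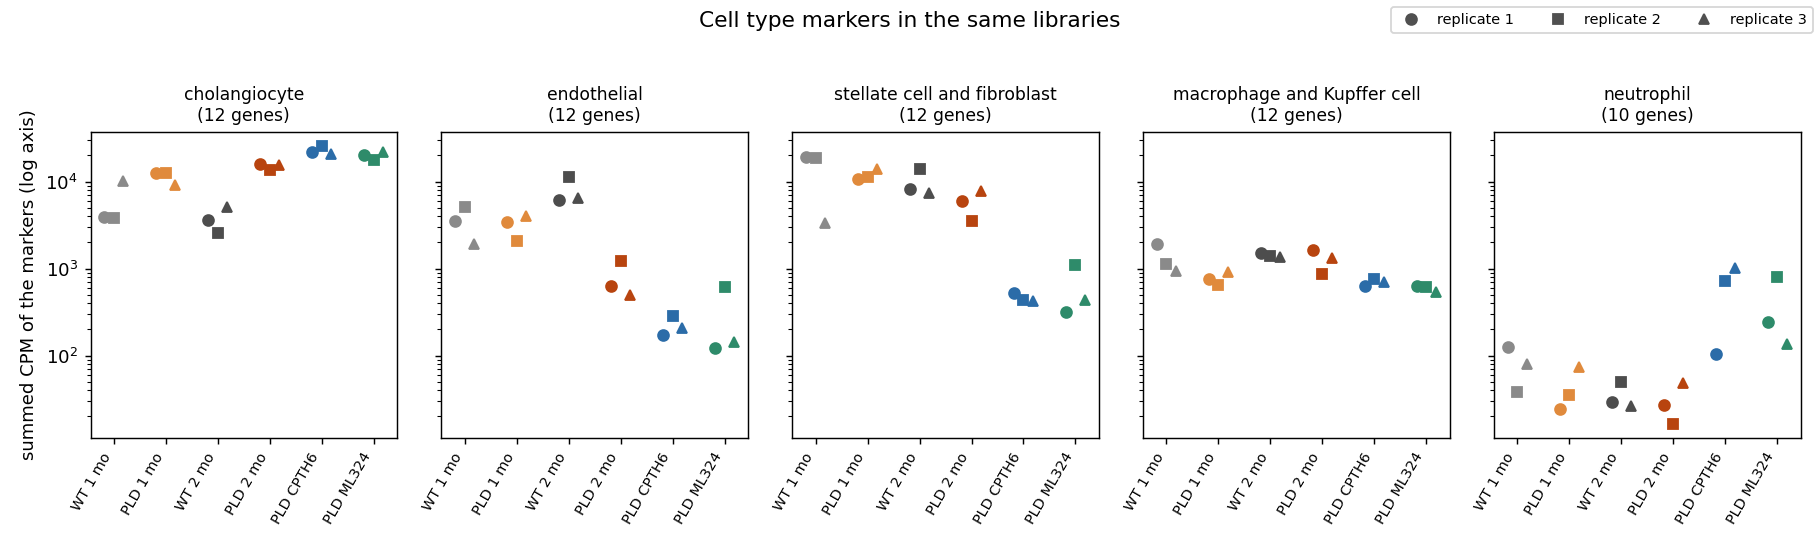
Summed CPM of 5 marker lists (y axis, log scale) in the 3 libraries of each group (x axis), with a symbol per replicate. Fibroblast markers drop and neutrophil markers rise in the treated groups, endothelial markers are lowest in the PLD groups from 2 months on, and WT replicate 3 at 1 month stands apart in fibroblast markers with 3320 CPM.

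The rest of the pathway was read from a list of 75 genes in 4 role groups. In PLD against WT at 2 months 17 of 75 were higher and 8 lower, with a median of 0.18, where 19.7% of all genes were higher and 20.3% lower. Called either way, its share lies below the 40.0% of all genes, and what follows describes single members. Among receptors and ligands 2 of 16 rose and 2 fell. Ltb, a ligand gene of the second branch, rose by 1.76 ± 0.44 from 4.12 ± 0.44 to 14.3 ± 6.65 CPM, and Tnfrsf12a, the receptor of the cytokine TWEAK, rose by 1.02 ± 0.25. Il1r1, the interleukin-1 receptor gene, fell by 1.17 ± 0.21 from 207 ± 37.1 to 94.1 ± 16.5 CPM (edgeR adjusted p = 0.00154). Of the adaptors, ubiquitin ligases and kinases, 7 of 20 rose and 3 fell. Map3k14, the gene of NIK, rose by 0.85 ± 0.13 from 45.9 ± 6.77 to 84.5 ± 2.52 CPM, Tab2, a partner of the kinase TAK1, rose by 0.66 ± 0.12, and Birc2, the gene of cIAP1, fell by 0.59 ± 0.13. Among inhibitors and other Rel or IkB family genes 3 of 13 rose and 1 fell. Bcl3, an atypical IkB protein that works in the nucleus, rose by 1.25 ± 0.15 from 58.7 ± 7.48 to 142.8 ± 8.65 CPM (edgeR adjusted p = 0.000183). Zc3h12a, an RNase that limits cytokine messages, rose by 1.03 ± 0.20, and Traf1 fell by 1.72 ± 0.39. Of the other target genes 5 of 26 rose and 2 fell, among them the chemokine gene Cx3cl1 (1.42 ± 0.21) and the survival gene Bcl2l1 (from 113 ± 9.66 to 248.5 ± 33.0 CPM) upward and the caspase-8 regulator Cflar (-0.90 ± 0.13) downward. All 12 genes named for 2 months kept their calls when each library was left out in turn.

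At 1 month, where 5.03% of all genes were called, 1 of the 75 rose, Traf6 at 0.48 ± 0.11, and 1 fell, Birc2 at -0.50 ± 0.13. Of the single libraries left out, both calls were kept only without WT replicate 3. Without any other they ended, with edgeR adjusted p up to 0.159 for Traf6 and 0.22 for Birc2. With time in PLD, where 9.61% of all genes were called and 11 of 12 endothelial markers were lower, 5 rose and 3 fell, among them Bcl3 (0.71 ± 0.14) and Lcn2 (1.31 ± 0.36) upward and Il1r1 (-0.88 ± 0.20) and Irf1 (-0.54 ± 0.15) downward, and 0 of the 8 calls were kept through every library left out. Those of Lcn2 and Il1r1 were lost whichever library was left out (edgeR adjusted p at least 0.0666 and 0.0518). The same held for Bcl2l1, Birc2 and Map3k14. In WT over time 0 of the 75 were called.

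After CPTH6 11 of the 75 were higher than in untreated PLD and 9 lower, with a median of -0.03, where 9.39% of all genes were higher and 13.7% lower. After ML324 8 were higher and 12 lower, with a median of -0.17, where 7.96% of all genes were higher and 11.4% lower. With 20 of 75 called for each compound, beside 23.1% and 19.4% of all genes, nothing is read from these counts about the list. Of the receptors and ligands 2 of 16 rose and 4 fell with CPTH6, and 1 rose and 4 fell with ML324. Tnfrsf12a rose by 1.14 ± 0.14 with CPTH6 and by 1.09 ± 0.14 with ML324, from 277 ± 15.2 to 633 ± 113 and 592 ± 51.7 CPM. Tnfsf13b, the gene of the B cell factor BAFF, fell, at -2.15 ± 0.34 and -1.92 ± 0.34, and so did Tnfrsf11a, the gene of RANK, at -1.03 ± 0.13 and -0.84 ± 0.13. Of the adaptors, ubiquitin ligases and kinases 3 of 20 rose and 3 fell with CPTH6, where Ripk1 (0.99 ± 0.17) and Myd88 (0.68 ± 0.16) rose and Rbck1 (-0.29 ± 0.08) fell. With ML324 2 rose, the IKK genes Chuk (0.41 ± 0.09) and Ikbkb (0.50 ± 0.13), and 1 fell, Birc2 (-0.58 ± 0.13). Among inhibitors and other Rel or IkB family genes 3 of 13 rose and 0 fell with CPTH6, namely Bcl3 (0.73 ± 0.18), Traf1 (1.05 ± 0.29) and Rel (0.61 ± 0.17), and with ML324 1 rose, Traf1 (1.29 ± 0.29). Of the other target genes 3 of 26 rose and 2 fell with CPTH6, and 4 rose and 7 fell with ML324. Ptgs2, the gene of cyclooxygenase-2, rose by 1.13 ± 0.22 and 1.07 ± 0.22, and Ccl2, a chemokine that draws monocytes, fell, at -2.13 ± 0.43 and -2.15 ± 0.43, from 40.4 ± 20.9 to 9.54 ± 0.73 and 9.08 ± 4.28 CPM. Il1b rose by 1.38 ± 0.36 with CPTH6, and Lcn2 by 1.55 ± 0.34 with ML324. Of the genes named here, 6 of 12 calls were kept through every library left out for CPTH6 and 8 of 10 for ML324, and those lost were Bcl3, Il1b, Myd88, Rbck1, Rel and Traf1, and then Ikbkb and Traf1. Between the compounds 0 of the 74 tested were called, and the largest difference by p was Gadd45b, at 0.65 ± 0.10 (507 ± 22.0 CPM with CPTH6 and 311 ± 14.3 with ML324, edgeR adjusted p = 0.234).

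**Figure D4:**
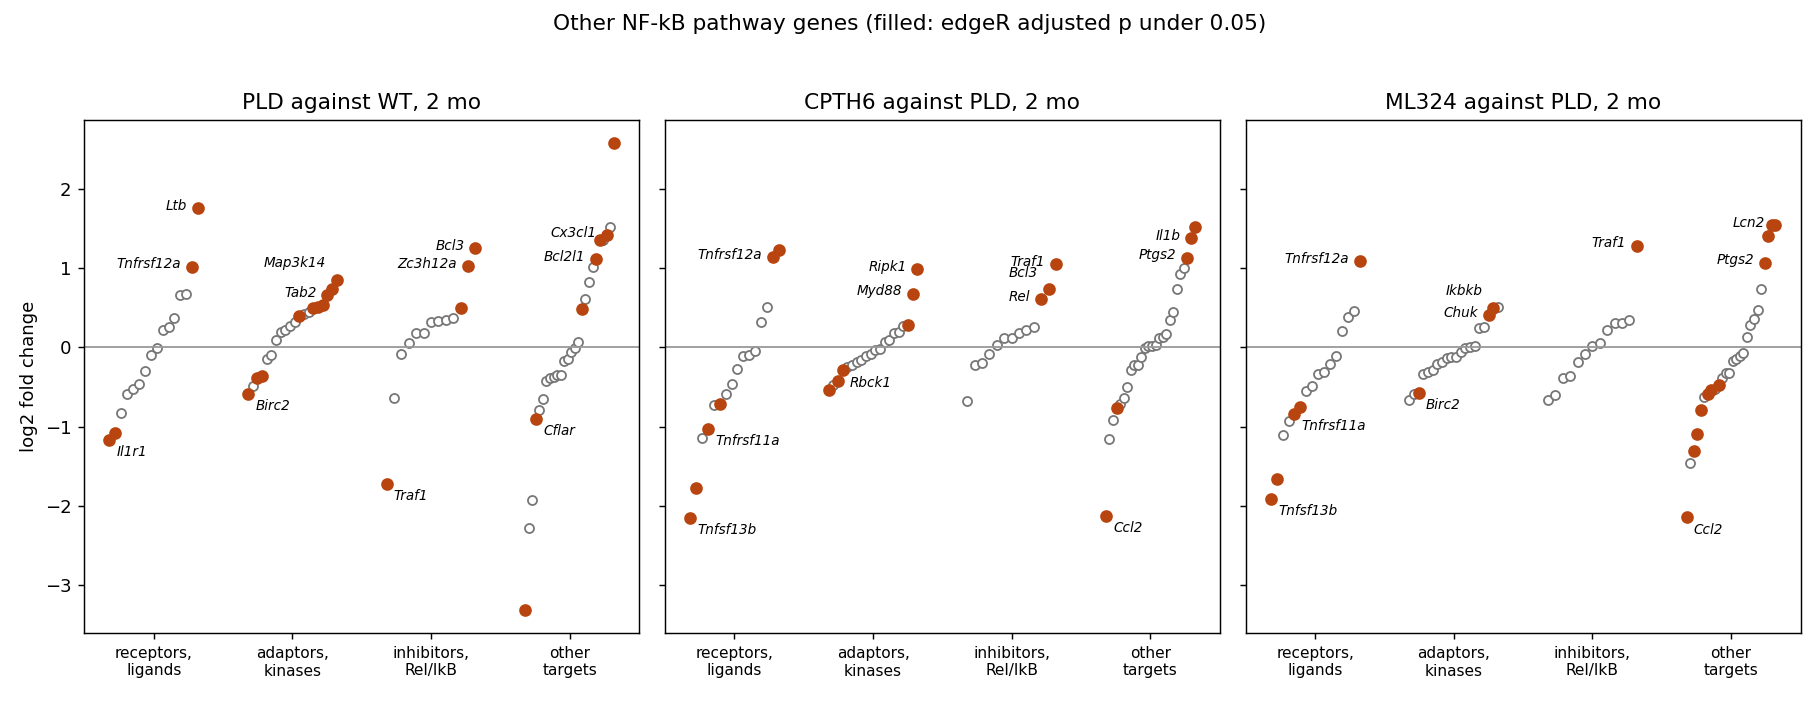
Log2 fold change (y axis) of the 75 other pathway genes in 4 role groups (x axis), ordered by value, for PLD against WT at 2 months and for each compound against untreated PLD. Filled points passed an edgeR adjusted p of 0.05, and the names are those given in the text, with Bcl3 and Map3k14 above 0 at 2 months and Tnfsf13b and Ccl2 among the lowest with both compounds.

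Across the 18 libraries, whose log2 CPM values share depth, group and cell makeup, the highest values between subunit genes were those of Rela and Relb (Pearson r = 0.91), Nfkb2 and Relb (0.83) and Nfkb2 and Rela (0.83). The inhibitors formed another pair, Nfkbia and Tnfaip3 (0.90), and Birc3 went with Tnfaip3 (0.82). Rela had 0.01 with Nfkbia and -0.10 with Tnfaip3, while Nfkb1 had 0.47 and 0.34. Outside the 10 genes, and among 9935 genes of at least 10 CPM on average, the genes most alike were Nfatc1 for Nfkb1 (0.89), Pvr for Nfkb2 (0.94), Retreg1 for Rela (0.95) and Rnf11 for Relb (0.91). Bcl10, an adaptor upstream of the IKK kinases, also ranked among the 3 most alike for Rela (0.95) and Relb (0.89). For Nfkbia the gene was Rbpj (0.87), for Tnfaip3 the chemokine gene Cxcl1 (0.93), for Tnfaip2 Clic4 (0.95) and for Birc3 Nfkbiz (0.94), the gene of an atypical IkB protein. For Icam1 it was Elf2 (0.89) and for Tnf the chemokine gene Ccl4 (0.81). Psd, which shares exon bases with Nfkb2, was among the 3 most alike for Nfkb2 (0.93).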

How the data were processed

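RNA was counted in 18 libraries of mouse primary cholangiocytes, 3 in each of 6 groups that were read from the sample titles. The deposited files hold whole-number counts of read pairs per gene over 55401 genes, made by the authors with featureCounts 1.6.0 and the GENCODE vM25 annotation on mm10, per the file headers. The submitters' processing notes also name STAR 2.7.4a, SAMtools 1.12 and DESeq2 1.26.0. The header shows paired counting with no strand, no multi-mapping reads and no assignment to overlapping genes. Symbols were matched by gene identifier (55141 of 55401).

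The test was run in edgeR 4.0.16 under R 4.3.3 (filterByExpr, TMM, quasi-likelihood F-test, Benjamini-Hochberg over all genes tested, threshold 0.05). The 12 untreated libraries shared a fit with 8 residual degrees of freedom, the 6 treated libraries a fit with 4, and untreated PLD at 2 months with both compounds a fit of 9 libraries with 6. The standard error of each log2 change was derived from its F statistic. CPM uses TMM-scaled library sizes over all 18 libraries, SDs are over 3 libraries, and correlations used log2 CPM with a prior count of 2. DESeq2 1.42.0, median-ratio factors, no filter, a replicate block, fits of only 2 groups and fits with libraries left out were tried as alternatives. The script was tested on simulated data. Of the pathway list, up to 3 called genes with the smallest adjusted p were named per comparison and role group, or the 1 with the smallest p where none was called. Per gene of the set, the 3 genes most alike were found. The genes and lists were chosen with earlier results of these data known. Total counts of 16345740 to 29277311 per library gave each of the 10 genes at least 439 counts.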

Additional observations from a re-analysis of the deposited data

Results flagged for a closer look

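Among the 75 other pathway genes, 3 had a difference between PLD and WT that itself differed between the months (edgeR interaction test). The test called 5.68% of all genes, so 3 of 75 is no more than the general share. Il1r1 had a difference of 0.25 ± 0.20 in PLD at 1 month and of -1.17 ± 0.21 at 2 months, an interaction of -1.42 ± 0.29 (edgeR adjusted p = 0.0252). For Bcl3 the differences were 0.31 ± 0.14 and 1.25 ± 0.15, an interaction of 0.94 ± 0.20 (edgeR adjusted p = 0.0287). For Cflar they were -0.17 ± 0.13 and -0.90 ± 0.13, an interaction of -0.73 ± 0.18 (edgeR adjusted p = 0.0433). Each of the 3 calls ended when single libraries were left out, and all 3 ended without PLD replicate 1 or WT replicate 2 of 2 months and without PLD replicate 3 of 1 month. Without that last library the edgeR adjusted p was 0.0724 for Il1r1, 0.0806 for Bcl3 and 0.123 for Cflar, each the highest of its range. Endothelial markers had the same kind of interaction, with 11 of 12 lower, and their part in these values was not tested.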

How the results depend on the processing

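Of 970 values of the 10 genes under the alternatives, 901 kept direction and side of the threshold, 19 lost and 26 gained a call and 24 turned sign. Of 698 values of the named pathway genes 555 kept both, 121 lost a call, 22 gained one and 0 turned. The cause of the shifts in counts of called genes was not tested. At 1 month 892 became 1994 with DESeq2, 2194 with no filter, 29 with only the 2 groups and 3541 without both libraries that stand apart, and the 10 genes gave 1 call with DESeq2 and 2 without both libraries. With time in PLD 1706 became 3079, 2818, 3811 and 3861 in that order, with 2, 1, 1 and 2 of the 10 called. With time in WT 9 became 643, 1224, 0 and 184, with 1 of the 10 called by DESeq2, with no filter and without both libraries. The interaction went from 1008 to 2069 with DESeq2 and 2282 with no filter, the latter with 1 of the 10. CPTH6 against ML324 went from 0 to 268 with DESeq2 and 232 with no filter, each with 1 of the 10.

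Same-numbered replicates did not all correlate above 0.1 in any comparison (-0.225 to 0.25), and the main fits used no pairing. These values cannot decide whether same-numbered libraries share a source, which was not tested. A replicate block gave 965 genes with time in PLD, 0 in WT, 426 for the interaction and 1 between the compounds, and changed no call of the 10 genes.

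Leaving out single libraries gave 99 to 3485 genes at 1 month (0 to 2 of the 10), 1 to 2 of the 10 at 2 months, 135 to 644 genes with time in PLD, 0 to 389 in WT (0 to 1 of the 10), 100 to 1413 for the interaction, 0 to 3 between compounds, 2490 to 3284 with CPTH6 (2 to 4 of the 10) and 1939 to 3043 with ML324. Uncalled values that turned sign ran, at 1 month, from -0.27 to 0.021 (Icam1) and -0.51 to 0.10 (Tnfaip3), and at 2 months from -0.038 to 0.23 (Nfkbia) and -0.11 to 0.26 (Tnfaip3). With time in PLD they ran from -0.023 to 0.45 (Tnfaip2) and -0.13 to 0.18 (Icam1), and in WT from -0.70 to 0.16 (Tnfaip2). For the interaction they ran from -0.019 to 0.24 (Rela, -0.084 without both libraries), -0.018 to 0.56 (Tnfaip3) and -0.022 to 0.83 (Tnfaip2). They ran from -0.10 to 0.13 between compounds (Tnfaip2), -0.25 to 0.13 with CPTH6 (Tnfaip3), and -0.17 to 0.066 (Relb) and -0.24 to 0.039 (Icam1) with ML324.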
